A study of Mus musculus with 38 samples.

Results

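The genes described here encode the heat shock proteins and chaperones of the mouse. They were chosen by symbol, as the genes named Hspa, Hsph1, Hsp90, Dnaja, Dnajb, Dnajc, Hspb, Hspd1, Hspe1 or Cct with a number or letter, without Hspbap1 and Hspbp1, and the choice used no measured value. The rule found 81 genes among the 48709 in the count tables, of which 21713 were annotated as protein-coding. By family they were 14 Hsp70 and Hsp110 genes, 3 Hsp90 genes, 45 J-domain genes and 9 subunits or relatives of the cytosolic chaperonin. The others were 2 genes of the mitochondrial chaperonin and 8 small heat shock proteins. Families were assigned by symbol alone, which counts Hspb11 with the small heat shock proteins only by its name. Tcp1, the remaining subunit of the cytosolic chaperonin, and the small heat shock protein genes Cryaa and Cryab are not caught by a rule on symbols.

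Hippocampal RNA was sequenced from 38 mice on a C57BL/6 background, in 8 groups set by age, genotype and chow. Mice of the pre-plaque group were taken at 6 months and mice of the post-plaque group at 10 months. APPPS1ΔE9 mice, called APPdelta9 in the labels, carry mutant human APP and PS1 transgenes and were set against WT mice, and both genotypes received placebo chow or chow with anle138b, a diphenylpyrazole that was made to block the aggregation of proteins. Each of the 4 combinations had 4 mice at 6 months, and 5 mice at 10 months apart from the 7 APPPS1ΔE9 mice on anle138b. For the 4 WT mice on placebo at 6 months a second label gives APPdelta9 as the genotype. Their titles call them WT and were followed here, and their App level of 1612 to 1781 CPM (counts scaled to library size, with TMM factors) lay within the WT range. The lane numbers in the titles set all pre-plaque WT mice on placebo in lane 4, the APPPS1ΔE9 mice on placebo in lane 5 and those on anle138b in lane 6. Lane and group cannot be told apart there. At 10 months the WT mice were in lanes 3 and 4 and the APPPS1ΔE9 mice in lanes 5 and 6, so lane and genotype cannot be told apart either.

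Chaperones bind proteins that are not folded, or that have lost their fold, and keep them from aggregating. Hsp70 proteins bind and release short stretches of a client in a cycle driven by ATP, J-domain proteins deliver the clients and start that cycle, and Hsp110 proteins recharge it by exchanging the nucleotide. Hsp90 takes over clients near their native fold, chaperonins fold proteins inside a ring, and small heat shock proteins hold unfolded proteins without ATP. When proteins unfold in the cytosol, the factor HSF1 switches on many of these genes through heat shock elements, and when they unfold in the endoplasmic reticulum, ATF6 and XBP1 switch on a separate set. Interest in them in amyloid models comes from their known action on aggregating proteins, Aβ and tau among them.

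Total counts lay between 15847985 and 31895808 per mouse. App stood at 1516 to 1806 CPM in the 18 WT mice and at 3235 to 4316 CPM in the 20 APPPS1ΔE9 mice, and Prnp, whose promoter drives the transgenes of this line, at 931 to 1242 and 2242 to 2927 CPM. The female transcript Xist was at 1154 to 1453 CPM in 12 mice, 11 of them WT, and at no more than 5.41 CPM in the other 26, so genotype and sex partly moved together. Markers of the choroid plexus, a tissue beside the hippocampus, had a summed level with a median of 435 CPM in pre-plaque APPPS1ΔE9 mice on placebo, of 5045 to 6587 CPM in the other 3 pre-plaque groups and of 77.5 to 124 CPM in the post-plaque groups. The 6 markers of hippocampal neurons summed to 5991 to 9420 CPM, and none was at 0. In bulk tissue, fewer cells of a type and less RNA per cell cannot be told apart.

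Chaperones took 0.737% to 0.913% of all counts. Hsp90ab1, the constitutive cytosolic Hsp90, was by far the highest per length, at a mean of 539 RPKM (CPM divided by the exon length in kilobases). It was followed by the J-domain gene Dnaja2 at 69.5 RPKM, the chaperonin subunit Cct5 at 66.8 RPKM, Dnajc5, the cysteine string protein of synaptic vesicles, at 62.8 RPKM, and Dnajc6, the auxilin that helps to strip clathrin from vesicles, at 62.5 RPKM. Next came the chaperonin subunit Cct2 at 61.95 RPKM. It was followed by Hspa5, the Hsp70 of the endoplasmic reticulum also called BiP, at 61.02 RPKM and its Hsp90 partner Hsp90b1 at 60.1 RPKM. The constitutive cytosolic Hspa8 was at 47.3 RPKM, whereas the stress-inducible copies Hspa1a and Hspa1b were at 0.796 and 1.67 RPKM.

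**Figure D1:**
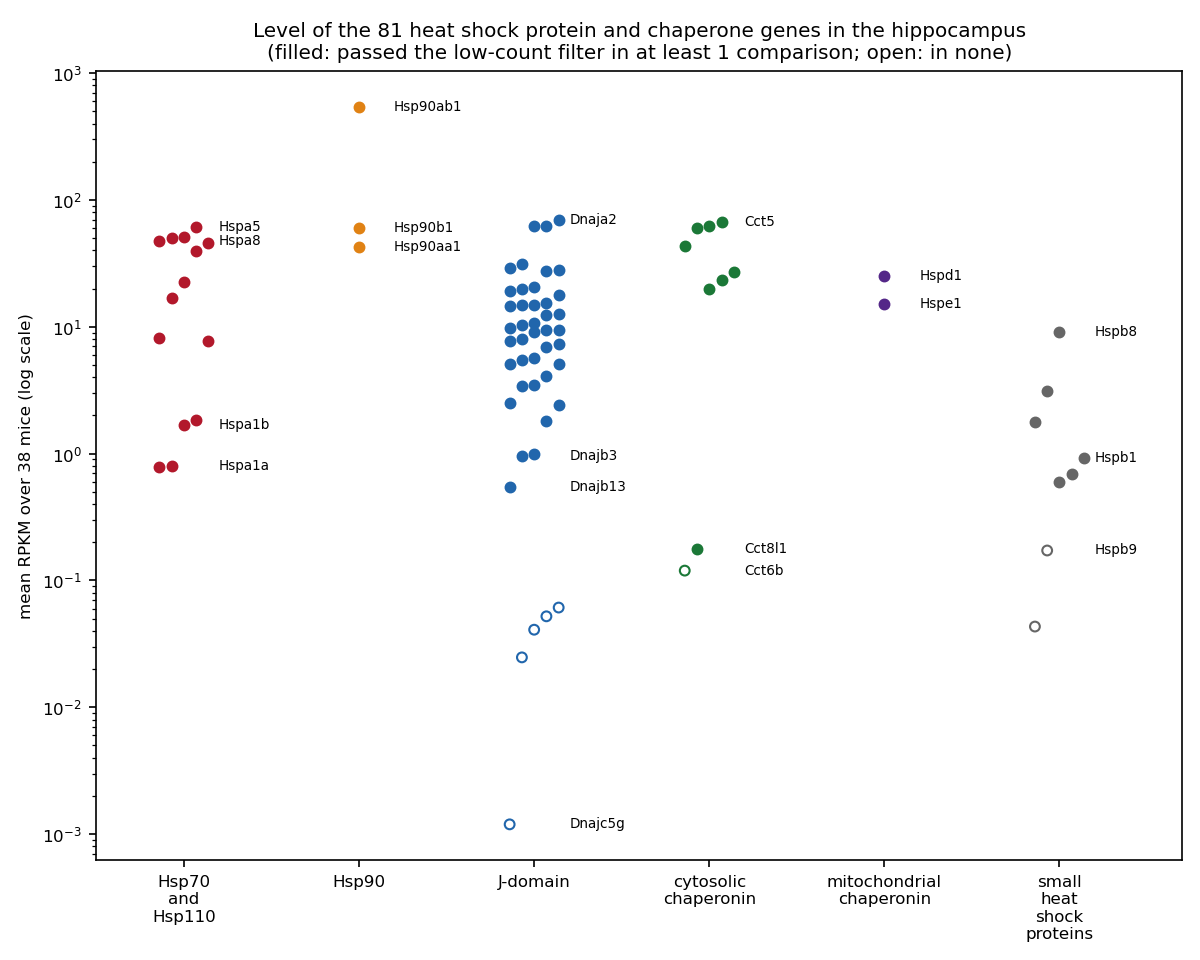
Mean RPKM over 38 mice (log axis) of each of the 81 genes, by family. Filled points passed the low-count filter in at least 1 comparison, and the 8 open points never did. Hsp90ab1 sits at 539 RPKM, all 6 tested small heat shock proteins below 10 RPKM.

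Of the 81 genes, 39 exceeded 10 RPKM. All 3 Hsp90 genes, 7 chaperonin subunits and both mitochondrial chaperonin genes did so, as did 19 J-domain and 8 Hsp70 or Hsp110 genes, but no small heat shock protein, whose highest member Hspb8 was at 9.02 RPKM. The filter on low counts removed 8 genes from every comparison. These were Cct6b, Dnajb7, Dnajb8, Dnajc22, Dnajc5b, Dnajc5g, Hspb7 and Hspb9, none with more than 12 counts in any mouse. Another 72 genes were tested in all 14 comparisons, and Cct8l1 in some of them. Reads of near-identical genes cannot be told apart by counting: 18 of the 81 genes shared over 10% of their exonic 50-base words with another annotated gene, among them Hspa1l with 71.4%, Hspa1a with 66.3%, Hspa1b with 62.3%, Hspb1 with 50.1%, Hsp90aa1 with 47.5%, Hspd1 with 39.7% and Hspa8 with 39.4%, and their values are uncertain to that extent.

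Promoters with known stress elements are shown first, for genes whose levels are described further on. Whether an element bears on these levels was not tested. RefSeq promoters (GRCm38.p6, 250 bases before to 50 after the start) were matched for 66 of the 81 genes. The endoplasmic reticulum stress element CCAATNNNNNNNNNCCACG, searched on both strands, stood in 3 of these 66 genes (4.55%) and in 37 of all 27025 (0.137%). The 3 were Hspa5 (chr2:34771840-34772139, plus strand), Hsp90b1 (chr10:86705395-86705694, minus strand) and Dnajc3 (chr14:118937682-118937981, plus strand), with the element in capitals, which Hsp90b1 holds 2 times.
Hspa5: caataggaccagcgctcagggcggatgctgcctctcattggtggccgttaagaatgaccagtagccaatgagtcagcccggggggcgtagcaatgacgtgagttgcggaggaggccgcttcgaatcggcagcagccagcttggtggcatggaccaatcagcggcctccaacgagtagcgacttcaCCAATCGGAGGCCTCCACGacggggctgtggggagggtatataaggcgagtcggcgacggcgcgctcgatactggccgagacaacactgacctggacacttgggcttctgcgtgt
Hsp90b1: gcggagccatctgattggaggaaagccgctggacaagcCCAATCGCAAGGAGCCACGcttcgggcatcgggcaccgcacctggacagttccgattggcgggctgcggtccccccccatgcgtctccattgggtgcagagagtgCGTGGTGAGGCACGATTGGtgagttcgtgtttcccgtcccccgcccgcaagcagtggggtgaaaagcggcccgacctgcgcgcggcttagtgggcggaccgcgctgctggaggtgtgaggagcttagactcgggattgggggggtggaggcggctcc
Dnajc3: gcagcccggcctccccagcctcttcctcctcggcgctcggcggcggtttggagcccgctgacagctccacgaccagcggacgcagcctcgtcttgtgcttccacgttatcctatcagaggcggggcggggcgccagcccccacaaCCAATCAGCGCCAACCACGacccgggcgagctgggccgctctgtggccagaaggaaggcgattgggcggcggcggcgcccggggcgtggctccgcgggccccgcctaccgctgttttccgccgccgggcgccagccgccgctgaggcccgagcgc

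A heat shock element of 3 alternating units, TTCNNGAANNTTC or GAANNTTCNNGAA, stood in the promoters of 4 of 66 members (6.06%) and of 179 of all 27025 genes (0.662%). They were Dnajb6, Hsph1 and the pair Hspd1 and Hspe1, which start next to each other on opposite strands, so that their windows overlap and hold the same 2 matches. The Hsph1 promoter (chr5:149636266-149636565, minus strand) is printed with its exact match in capitals. Hsph1 was picked for its wide range among post-plaque APPPS1ΔE9 mice, given further on, and no link of element and level was tested. A match of letters does not show that a factor binds, and an exact search of a short window can miss elements. Hspa1a, Hspa1b and Dnajb1 were not among the members with a match.
Hsph1: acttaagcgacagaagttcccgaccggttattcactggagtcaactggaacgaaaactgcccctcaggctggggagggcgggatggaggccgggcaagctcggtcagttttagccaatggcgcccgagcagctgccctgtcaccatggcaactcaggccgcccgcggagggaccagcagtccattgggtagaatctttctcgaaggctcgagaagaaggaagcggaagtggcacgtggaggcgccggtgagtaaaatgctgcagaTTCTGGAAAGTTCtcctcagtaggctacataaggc

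No chaperone gene passed the threshold, an adjusted p-value under 0.1 in edgeR's quasi-likelihood test, in any of the 14 comparisons. DESeq2, run as an alternative, called 1 in 1 comparison (Hspa12b, below) and 0 in the other 13. Between 47 and 72 of the 72 or 73 tested genes had a 95% interval of the log2 fold change that lay wholly within 0.5 on either side of 0, so that for most members these groups bound a difference to less than that size. All 8 comparisons of 2 groups are shown member by member in the plot of fold changes.

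**Figure D2:**
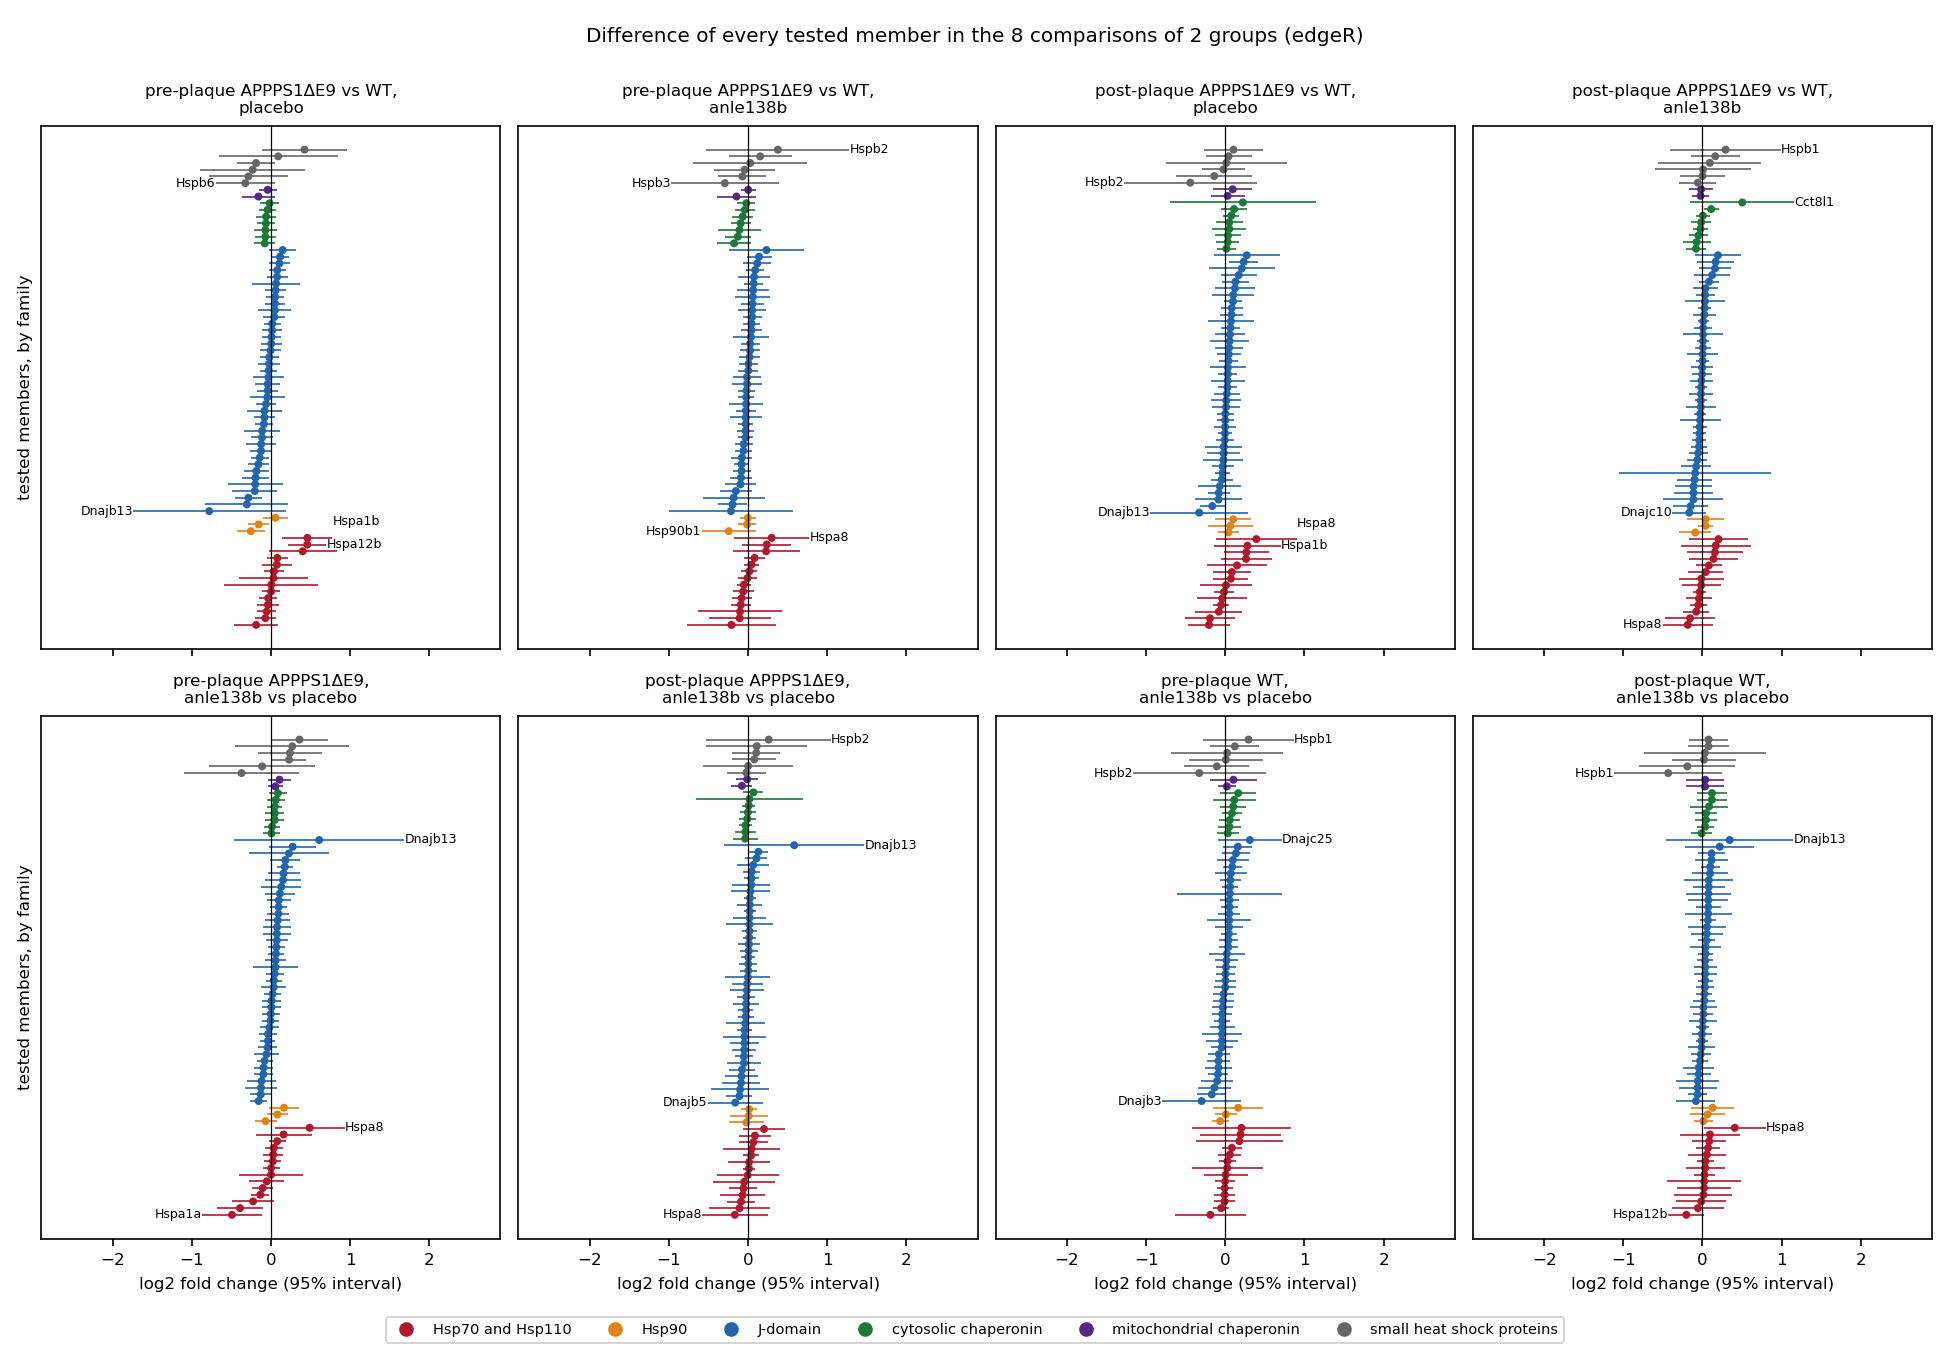
Log2 fold change (points) with its 95% interval (lines) from edgeR for every tested member in the 8 comparisons of 2 groups, coloured by family, with some of the largest estimates named. Most points lie close to 0, and 0 members passed the threshold in any panel.

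Set against WT mice at 6 months, both on placebo, APPPS1ΔE9 mice had 27 chaperone genes higher and 45 lower of 72 tested, with a median log2 fold change of -0.04 beside 0.00 over all tested genes. With sex class as a covariate the direction turned, to 37 of 72 higher and a median of 0.01. Of the WT mice here, mouse 37 alone shared the sex class of the APPPS1ΔE9 mice. Fits of this comparison with sex class, here and below, therefore set the APPPS1ΔE9 mice against that mouse. No member was called by edgeR, where 0.0715% of all genes were, and DESeq2 called none either, giving no adjusted p to 27 of them. At an unadjusted p under 0.05 stood 10 members (13.9%), 3 higher and 7 lower, against 11.1% of all tested genes, a share near the background, and 2 did with sex class as a covariate. The 7 lower ones were Dnajc12, Hsp90b1, Dnajb2, Dnajb9, Hsp90aa1, Dnajc15 and Dnajc28, and the 3 higher ones Hspa12b, Hspa1b and Dnajc13. All 7 tested chaperonin subunits had estimates below 0, with a median of -0.06, and none passed an unadjusted p of 0.05.

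Hspa12b, a distant Hsp70 relative known from endothelial cells, had the smallest p-value of the members in this comparison. Its level was 5.75, 5.16, 4.93 and 4.59 CPM in the WT mice and 7.11, 6.62, 7.40 and 6.74 CPM in the APPPS1ΔE9 mice. The log2 fold change was 0.46 (SE 0.11, adjusted p = 0.294, edgeR). On anle138b chow the pre-plaque values were 5.68, 4.30, 5.32 and 4.91 CPM in WT mice and 6.41, 6.64, 6.399 and 4.65 CPM in APPPS1ΔE9 mice. There 3 of 4 APPPS1ΔE9 mice lay above every WT mouse and the 4th, mouse 84, lay among them, giving 0.24 (SE 0.14, adjusted p = 0.836, edgeR). Over both chows the difference was 0.34 (SE 0.09, adjusted p = 0.238, edgeR), and this is the comparison in which DESeq2 called the gene (adjusted p = 0.0765). edgeR called it once mouse 84 was left out (log2 fold change 0.41, adjusted p = 0.0449). Over the 16 fits that left out 1 mouse, the adjusted p (edgeR) ran from 0.0449 to 0.421. Mouse 84 was the APPPS1ΔE9 mouse that lay among the WT mice, so that p-value follows from the choice and supports nothing.

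The post-plaque mice did not show that order. Hspa12b was at 8.79, 8.98, 8.41, 6.25 and 8.51 CPM in placebo-treated WT mice and at 7.24, 7.45, 7.14, 5.86 and 8.02 CPM in placebo-treated APPPS1ΔE9 mice, a difference of -0.21 (SE 0.12, adjusted p = 1, edgeR). The test of the 2 ages against each other gave -0.67 (SE 0.16, unadjusted p = 0.000651, adjusted p = 0.635, edgeR) and so did not pass. The 3 endothelial markers Cldn5, Pecam1 and Flt1 summed to 73.8 to 99.4 CPM in the pre-plaque placebo-treated WT mice and to 88.3 to 98.7 CPM in the APPPS1ΔE9 mice, overlapping, and at 10 months to 90.5 to 105 and 90.1 to 113 CPM in the same order. Their part in the Hspa12b values was not tested. With sex class as a covariate the 6-month placebo difference was 0.53 (SE 0.19, adjusted p = 1, edgeR).

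Hspa1a and Hspa1b encode the stress-inducible cytosolic Hsp70 and lie side by side on chromosome 17. In pre-plaque mice on placebo Hspa1b was at 4.80, 4.18, 3.70 and 3.67 CPM in WT mice and at 4.75, 6.70, 4.99 and 5.84 CPM in APPPS1ΔE9 mice, of which 3 lay above all WT mice (log2 fold change 0.46, SE 0.15, adjusted p = 0.36, edgeR). Anle138b-treated APPPS1ΔE9 mice had 4.71, 4.28, 4.27 and 3.96 CPM (-0.39 against placebo in their genotype, SE 0.13, adjusted p = 0.323, edgeR). Hspa1a went the same way, from 2.28, 3.31, 2.41 and 2.62 CPM on placebo to 2.04, 2.17, 1.88 and 1.56 CPM on anle138b (-0.49, SE 0.17, adjusted p = 0.329, edgeR). In WT mice of the same age the chows differed by 0.18 (SE 0.25) for Hspa1b and 0.02 (SE 0.21) for Hspa1a, and the interactions of genotype and chow were -0.56 (SE 0.29, adjusted p = 0.638) and -0.50 (SE 0.27, adjusted p = 0.639, edgeR). Both genes rested on few reads, and most of their 50-base words are shared with other annotated genes, led by each other and then Gm20481 and Gm10501. At 10 months anle138b minus placebo in APPPS1ΔE9 mice was -0.11 (SE 0.18) for Hspa1b and 0.04 (SE 0.17) for Hspa1a.

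In APPPS1ΔE9 mice at 6 months, anle138b set against placebo had 49 of 72 members higher, with a median of 0.05 beside -0.00 over all genes. edgeR called 0 members (0.0529% of all genes), and DESeq2 called 0 with no adjusted p for 4. At an unadjusted p under 0.05 stood 8 members (11.1%) against 13.1% of all genes. They were Dnajb9, Hspa8, Hspb11 and Hspb6 on the higher side and Dnajc16, Hspa1a, Hspa1b and Hsph1 on the lower. Dnajb9, the J-domain partner of BiP also called ERdj4, had the smallest p-value. It was at 34.2, 33.7, 32.7 and 33.4 CPM on placebo and at 38.2, 38.97, 38.4 and 37.8 CPM on anle138b, a difference of 0.18 (SE 0.05, adjusted p = 0.28, edgeR). WT mice held 35.7 to 40.6 CPM on placebo and 32.3 to 37.7 CPM on anle138b. All 7 chaperonin subunits and both mitochondrial chaperonin genes had estimates above 0, with medians of 0.05 and 0.08, none past an unadjusted p of 0.05. The same signs held in 6-month WT mice on anle138b against placebo, with medians of 0.09 and 0.06. For the interaction of genotype and chow the medians were -0.03 and 0.03.

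One mouse weighed on both comparisons that used the 6-month APPPS1ΔE9 mice on placebo. Among these 4, mouse 17 had by far the most Ttr, the main choroid plexus transcript (6243 CPM against 32.1, 647 and 147 CPM), and it alone had high Hspa8. Over the other 6-month mice the 2 genes did not always go together. Mouse 37 had 6004 CPM of Ttr and 260 CPM of Hspa8, mouse 31 had 7179 and 164 CPM, and mouse 84 had 125 and 269 CPM. Without mouse 17, Hsp90b1 was called lower in APPPS1ΔE9 than in WT mice (log2 fold change -0.33, adjusted p = 0.094, edgeR). Dnajc3 (0.42, adjusted p = 0.0355) and Hspa8 (0.72, adjusted p = 5.1e-05, edgeR) were then called higher on anle138b than on placebo. For Hspa8 this took out the only mouse of its group with a high level, and for Hsp90b1 the only one that reached the WT range. Those p-values follow from that choice and support nothing. Over the 8 fits that left out 1 mouse, the adjusted p (edgeR) ran from 0.094 to 0.782 for Hsp90b1 and from 0.0355 to 0.733 for Dnajc3. The lowest was in both cases the fit without mouse 17. With all mice kept and the choroid plexus level as a covariate, the differences on anle138b were 0.12 (SE 0.06, adjusted p = 0.672) for Dnajc3 and 0.37 (SE 0.15, adjusted p = 0.657, edgeR) for Hspa8.

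With both genotypes on anle138b, the pre-plaque APPPS1ΔE9 mice had 29 of 72 members higher than WT mice (median -0.02). edgeR called 0 members (0.047% of all genes), as did DESeq2. Only Dnajc1, a J-domain protein of the endoplasmic reticulum, stood at an unadjusted p under 0.05 (1.39% of members against 5.64% of all genes), at -0.20 (SE 0.09, adjusted p = 0.836, edgeR). The largest estimates were those of Hspb2 (0.38), Hspa8 (0.30), Hspb3 (-0.29) and Hsp90b1 (-0.24), and the interval of each held 0.

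At 10 months, placebo-treated APPPS1ΔE9 mice had 49 of 73 members higher than WT mice, with a median of 0.03. With the choroid plexus level as a covariate 33 of 73 were higher, and the median was -0.01. edgeR called 0 of them, where 0.324% of all genes were called, and DESeq2 called 0. The 2 members at an unadjusted p under 0.05 (2.74% against 4.1% of all genes) were Dnajc28 at 0.23 (SE 0.08, adjusted p = 0.891) and Dnajc15, a J-domain protein of the inner mitochondrial membrane, at -0.16 (SE 0.07, adjusted p = 1, edgeR). All 8 chaperonin genes, all 3 Hsp90 genes and both mitochondrial chaperonin genes had estimates above 0, with medians of 0.05, 0.06 and 0.06. The extremes were Hspb2 (-0.44), Dnajb13 (-0.33), Hspa1b (0.28) and Hspa8 (0.39), each with an interval that held 0. In this comparison, markers of plaque microglia summed to 76.8 to 129 CPM in the APPPS1ΔE9 mice against 26.1 to 35.9 CPM in the WT mice.

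Under anle138b at 10 months, 33 of 73 members were higher in APPPS1ΔE9 than in WT mice (median -0.01). edgeR called 0 members, against 0.723% of all genes, and DESeq2 called 0. Cct5 was the 1 member at an unadjusted p under 0.05 (1.37% against 5.78% of all genes), at 0.11 (SE 0.04, adjusted p = 0.788, edgeR). Its relative Cct8l1 had the largest estimate, 0.50, at a level of 0.176 RPKM and with an interval from -0.15 to 1.16.

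Treatment of 10-month APPPS1ΔE9 mice moved no member past the threshold in edgeR (0% of all genes were called) or DESeq2. Dnajc15 stood at an unadjusted p under 0.05 (1 member, 1.37%, against 1.48% of all genes), at 0.13 (SE 0.06, adjusted p = 0.999, edgeR). Of 73 members 37 were higher and 36 lower on anle138b, with a median of 0.00, and 66 had intervals within 0.5 of 0. In WT mice, edgeR and DESeq2 called 0 members at 6 months (0% of all genes), and none of the 72 had an unadjusted p under 0.05 (1.85% of all genes did). At 10 months both called 0 (0% of all genes) and Hspa8 stood at an unadjusted p under 0.05 (1.39% against 1.25%), at 0.41 (SE 0.18, adjusted p = 1, edgeR). In that comparison 55 of 72 members were higher on anle138b, with a median of 0.03, but 33 of 72 with a median of -0.00 once the choroid plexus level was a covariate, and the 2 lowest were Hspb1 (-0.43) and Hspa12b (-0.20).

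Fits over 4 or more groups gave the same counts. The genotype difference over both chows left 0 of 72 members called at 6 months (0.172% of all genes) and 0 of 73 at 10 months (1.56% of all genes), with 5 (6.94%) and 1 (1.37%) at an unadjusted p under 0.05 where 10.5% and 7.07% of all genes were. At 6 months these were Hspa12b, Dnajc15, Hsp90b1, Dnajc8 and Cct7, of which the last 4 were lower in APPPS1ΔE9 mice, and all 7 chaperonin subunits had estimates below 0 (median -0.07). At 10 months the 1 was Dnajc28. The interaction of genotype and chow called 0 members at 6 months (0% of all genes, 6 members against 7.99% of genes at an unadjusted p under 0.05) and 0 at 10 months (0%, with 2 members against 2.3%). The genotype difference at 10 against 6 months called 0 (0%), and 7 members stood at an unadjusted p under 0.05 (9.59% against 6.16%). Over all 38 mice, anle138b against placebo gave 0 called members (0.011% of all genes) and 0 at an unadjusted p under 0.05, against 3.53% of genes. There 72 of 73 intervals lay within 0.5 of 0. DESeq2 called 0 members in each of these, save Hspa12b at 6 months over both chows.

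Hspa8, the Hsc70 that folds new proteins and uncoats clathrin vesicles, did not vary smoothly between mice. Its CPM in pre-plaque mice on placebo was 166, 164, 260 and 163 in WT and 269, 159, 164 and 156 in APPPS1ΔE9 mice, and on anle138b 169, 149, 277 and 261 in WT and 267, 278, 251 and 269 in APPPS1ΔE9 mice. Between 169 and 251 CPM lay none of the 16 mice, with 8 below and 8 above. At 10 months 7 mice lay at 116 to 159 CPM and 15 at 193 to 293 CPM. At 6 months, WT mice above the gap numbered 1 of 4 on placebo and 2 of 4 on anle138b, and APPPS1ΔE9 mice 1 of 4 and 4 of 4. At 10 months the numbers were 2 of 5 and 5 of 5 for WT and 4 of 5 and 4 of 7 for APPPS1ΔE9 mice, again placebo first. The estimates of Hspa8 rested on these numbers of mice, among them 0.49 on anle138b against placebo in 6-month APPPS1ΔE9 mice (SE 0.19, adjusted p = 0.36, edgeR), and the gap crossed both genotypes and both chows.

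The level of Hspa8 mirrored that of Gm26825, a lincRNA gene on chromosome 5 (chr5:5781530-5783636, mm10, plus strand), far from Hspa8 itself (chr9:40800984-40810087, plus strand). Gm26825 was at 9.45 to 17.6 CPM in each of the 15 mice below the gap and at no more than 0.252 CPM in each of the 23 above it. The strand opposite to the Gm26825 transcript holds a copy of the Hspa8 message. Over 1851 of the 1938 coding bases of Hspa8 the 2 sequences differed at 5 positions (99.7% identity), and 81.8% of the 50-base words of Gm26825 occur in Hspa8. A stretch of 120 bases, from base 87 of the Hspa8 coding sequence on, is printed with its 1 difference in capitals to show how little separates reads of the 2 genes.
Hspa8: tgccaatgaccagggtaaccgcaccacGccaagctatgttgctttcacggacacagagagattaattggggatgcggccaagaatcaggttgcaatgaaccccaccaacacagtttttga
Gm26825: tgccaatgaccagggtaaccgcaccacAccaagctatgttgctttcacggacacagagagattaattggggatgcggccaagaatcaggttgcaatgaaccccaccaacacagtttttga

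Adding the counts of both genes did not close the gap, for the sums were 160 to 182 CPM and 251 to 278 CPM at 6 months. How the authors' counting treated reads that match both places is not given in the sources used here, and whether the gap lies in the level of Hspa8 or in the placing of its reads was not tested. The genes that went most with Hspa8 across mice, by the correlation of deviations from group means over 38 mice and 14995 genes, were Gm26825 (r = -0.91) and Sc5d, an enzyme of cholesterol synthesis (r = 0.85). Of the 10 genes with the largest r of either sign, 7 lay on chromosome 9 within 15 Mb of Hspa8, where 5.74% of the ranked genes lie on that chromosome as a whole. Among them were D630033O11Rik (r = -0.77, 2.44 Mb away), Ift46 (r = -0.73, 3.97 Mb), 1110032A03Rik (r = 0.72, 9.96 Mb) and Nxpe4 (r = 0.71, 7.36 Mb). Sc5d lies 1.45 Mb away, and its r was 0.85 within the pre-plaque and 0.84 within the post-plaque mice.

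**Figure D3:**
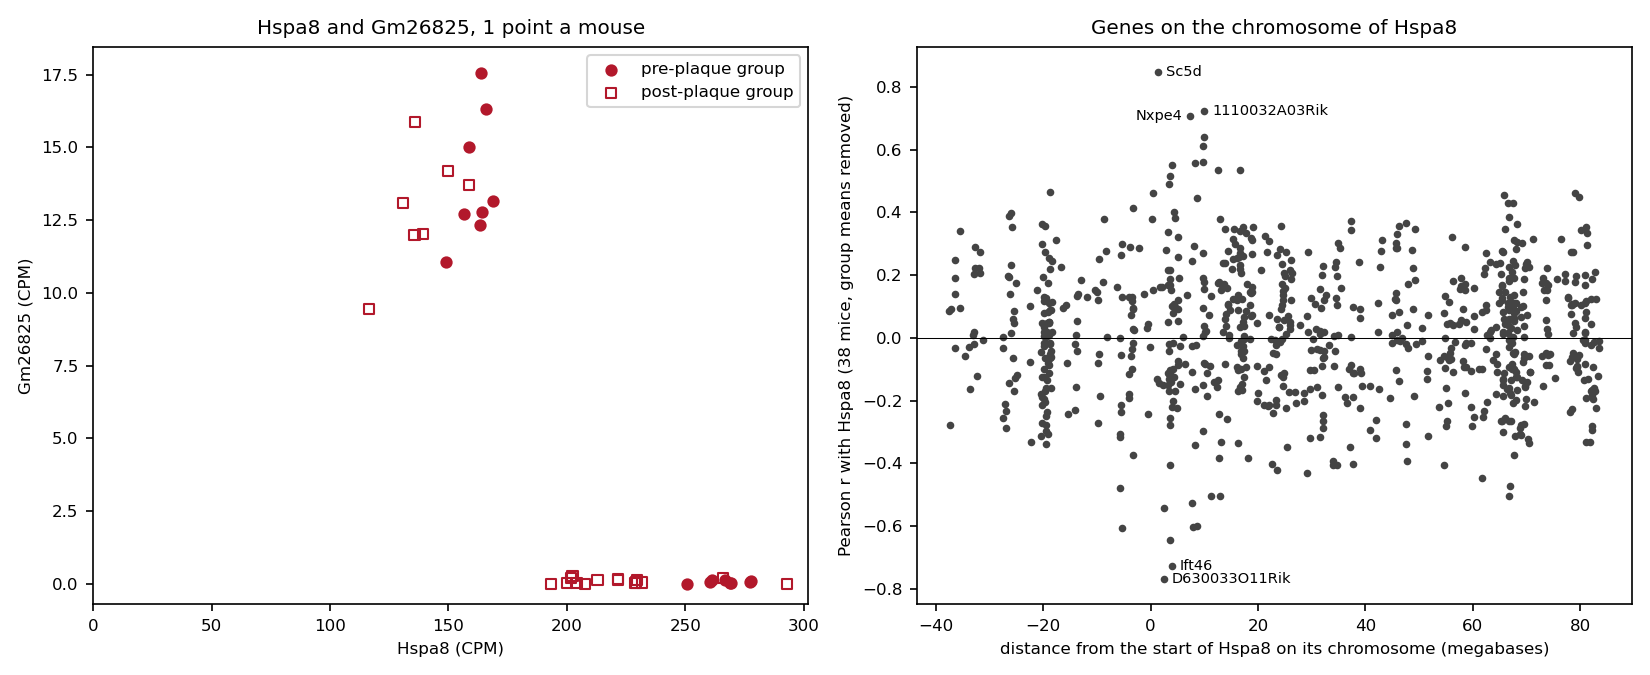
Left, Hspa8 against Gm26825 in CPM with 1 point per mouse. The 15 mice below the gap hold 9.45 CPM of Gm26825 or more and the other 23 hold 0.252 CPM or less. Right, r with Hspa8 of each expressed gene of its chromosome against distance in megabases, where the largest values of either sign lie within 15 Mb.

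Some genes of the endoplasmic reticulum went together from mouse to mouse and others did not. Among 8 such members, 24 of 28 pairs had a positive r, with a median of 0.34 and a range from -0.78 (Dnajc10 with Dnajc1) to 0.95. Hspa5 was at 293, 363, 320 and 265 CPM in WT mice on placebo at 6 months and at 392, 464, 282 and 257 CPM in those on anle138b. The APPPS1ΔE9 mice of that age had 334, 243, 261 and 243 CPM on placebo and 345, 351, 288 and 241 CPM on anle138b. At 10 months it was at 174 to 247 CPM in the 10 WT mice and at 168 to 337 CPM in the 12 APPPS1ΔE9 mice, of which 6 lay above every WT mouse. No test was made between the ages as such. The genotype difference of Hspa5 at 10 months over both chows was 0.23 (SE 0.11, adjusted p = 0.719, edgeR) and at 6 months -0.20 (SE 0.13, adjusted p = 0.611, edgeR). On placebo the 10-month and 6-month differences stood 0.45 apart (SE 0.20, adjusted p = 0.789, edgeR), and those of Hsp90b1 0.35 apart (SE 0.15, adjusted p = 0.789, edgeR).

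Hsp90b1, the endoplasmic Hsp90 called GRP94, was at 267 to 330 CPM in pre-plaque placebo-treated WT mice and at 276, 218, 242 and 235 CPM in placebo-treated APPPS1ΔE9 mice, of which only mouse 17 reached the WT range (log2 fold change -0.25, SE 0.08, adjusted p = 0.36, edgeR). On anle138b it was at 259 to 395 CPM in WT and 238 to 307 CPM in APPPS1ΔE9 mice, overlapping. Adding the choroid plexus level as a covariate brought the placebo difference to -0.15 (SE 0.06, adjusted p = 0.741, edgeR), and adding sex class to -0.19 (SE 0.13, adjusted p = 1, edgeR).

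Across all 38 mice, with group means removed, Hspa5 correlated with Hsp90b1 at r = 0.95 (rho = 0.95), with Dnajb11, its secreted J-domain partner, at r = 0.83 (rho = 0.81) and with Dnajc3, the J-domain inhibitor of PERK called p58IPK, at r = 0.64 (rho = 0.60). Permuting the mice within groups 100000 times gave p = 1e-05, the smallest it can give, for the first 2 and p = 3e-04 for the third (rho: 1e-05, 1e-05 and 5.7e-04). Adjusted over the 12 relations computed, these were 2e-05, 2e-05 and 4e-04 (rho: 2.4e-05, 2.4e-05 and 8.5e-04). The 12 pairs were chosen after their coefficients had been seen, so the p-values describe them and support nothing. The 3 relations held within the pre-plaque mice (r = 0.94, 0.91 and 0.65), within the post-plaque mice (r = 0.96, 0.78 and 0.65) and without the 2 mice farthest from the median of Hspa5 (r = 0.94, 0.80 and 0.66). Hspa5, Hsp90b1 and Dnajc3 are the members with the stress element printed above, and Dnajb11 had none in its window.

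**Figure D4:**
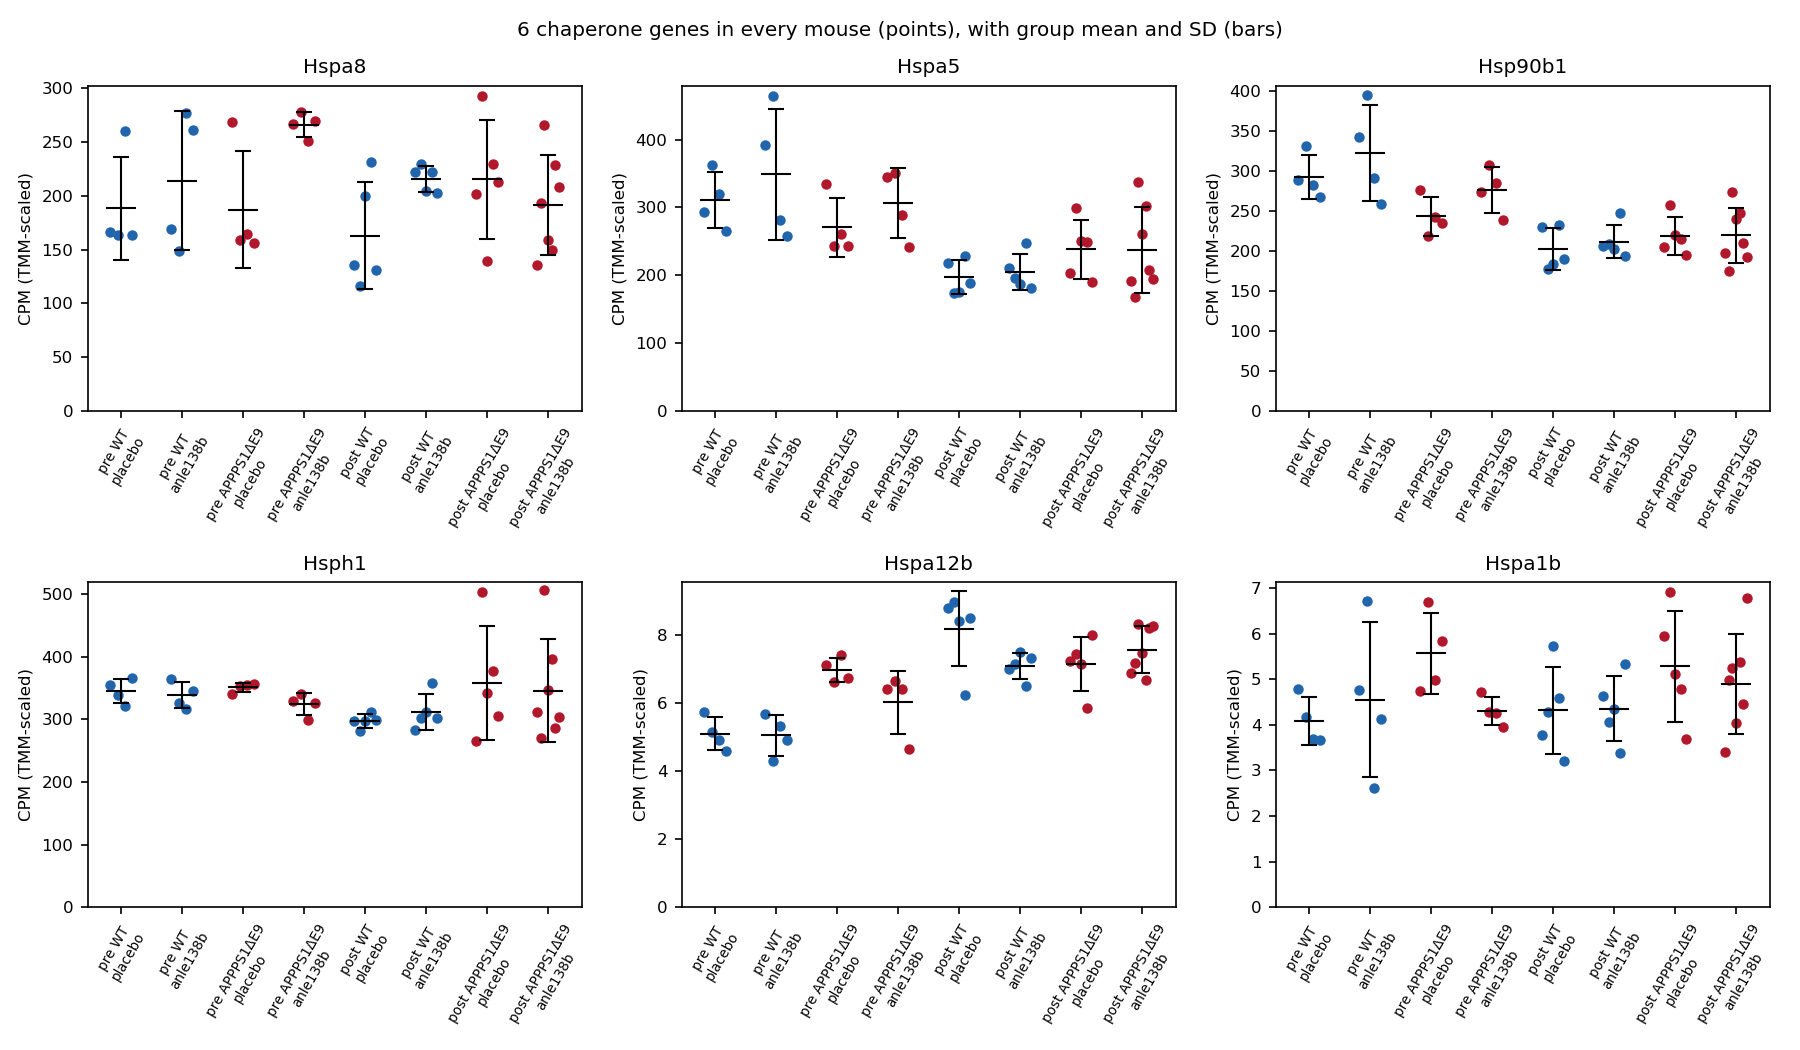
CPM of 6 members in each of the 38 mice, blue for WT and red for APPPS1ΔE9, with group mean and SD as bars. Hspa8 falls into separate ranges within groups, Hspa5 and Hsp90b1 follow each other, and Hsph1 reaches 504 and 507 CPM in 2 post-plaque APPPS1ΔE9 mice.

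Hsph1, the Hsp110 that recharges Hsp70, kept within 281 to 366 CPM in all 16 pre-plaque mice and the 10 post-plaque WT mice. In post-plaque APPPS1ΔE9 mice it was at 265, 504, 342, 377 and 306 CPM on placebo and ran from 271 to 507 CPM, with a median of 312 CPM, on anle138b. Mouse 86 on placebo and mouse 93 on anle138b held the highest values. The genotype difference over both chows was 0.20 (SE 0.11, adjusted p = 0.777, edgeR), and the SD was 91.1 and 82.2 CPM in the 2 post-plaque APPPS1ΔE9 groups against 7.22 to 28.3 CPM in the other 6. Cirbp, the cold-inducible RNA-binding protein whose message is known to fall with rising temperature, was lowest in the same mice, at 40.8 and 42.3 CPM against 50.8 to 94.2 CPM in the other 36. Across mice Hsph1 and Cirbp had r = -0.90 (rho = -0.75, permutation p = 1e-05 and 8e-05, adjusted 2e-05 and 1.6e-04 over the 12 relations). The relation was r = -0.93 within the post-plaque mice, -0.52 within the pre-plaque mice and -0.84 without the 2 mice farthest from the median of Hsph1. Hspa5 and Cirbp had r = -0.78 (rho = -0.84, permutation p = 1e-05 for both, adjusted 2e-05 and 2.4e-05), at -0.67 and -0.90 within the pre-plaque and post-plaque mice. Hsph1 and Hspa5 had r = 0.64 (rho = 0.53, permutation p = 1.8e-04 and 0.0056, adjusted 2.7e-04 and 0.0067), which was 0.86 within the post-plaque and -0.06 within the pre-plaque mice, a difference that was not tested. Hsp90aa1 and Cirbp had r = -0.59 (rho = -0.50, permutation p = 0.0026 and 0.0082, adjusted 0.0029 and 0.0089), at -0.64 and 0.06 within the post-plaque and pre-plaque mice.

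High coefficients were not limited to the endoplasmic reticulum. Of 2346 pairs among 69 members with a mean above 1 CPM, 49 (2.09%) had r over 0.8, against 0.597% of all pairs of expressed genes, and 12 (0.512%) had r under -0.7, against 1.46%. Hsp90aa1, the inducible cytosolic Hsp90, went with the Hsp110 relatives Hspa4 (r = 0.94) and Hspa4l (r = 0.93), with Hspd1 (r = 0.89), Hspa13 (r = 0.87), Cct8 (r = 0.87) and Dnaja1 (r = 0.84), all over 38 mice. The coefficients were larger within the post-plaque mice (0.97, 0.95, 0.93, 0.90, 0.92 and 0.87) than within the pre-plaque mice (0.63, 0.71, 0.31, 0.57, 0.55 and 0.74), with fewer mice in the latter and the difference not tested. Other mitochondrial members were less close to Hsp90aa1 than Hspd1, with r = 0.43 for Hspa9, 0.33 for Hspe1, 0.25 for Dnaja3, -0.05 for Dnajc15 and -0.63 for Dnajc19, and the median over 21 pairs of 7 mitochondrial members was 0.11. Hspa2 had a negative coefficient (r = -0.72 with Hsp90aa1, -0.72 and -0.73 within the 2 ages). All of these coefficients share the same 38 libraries.

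**Figure D5:**
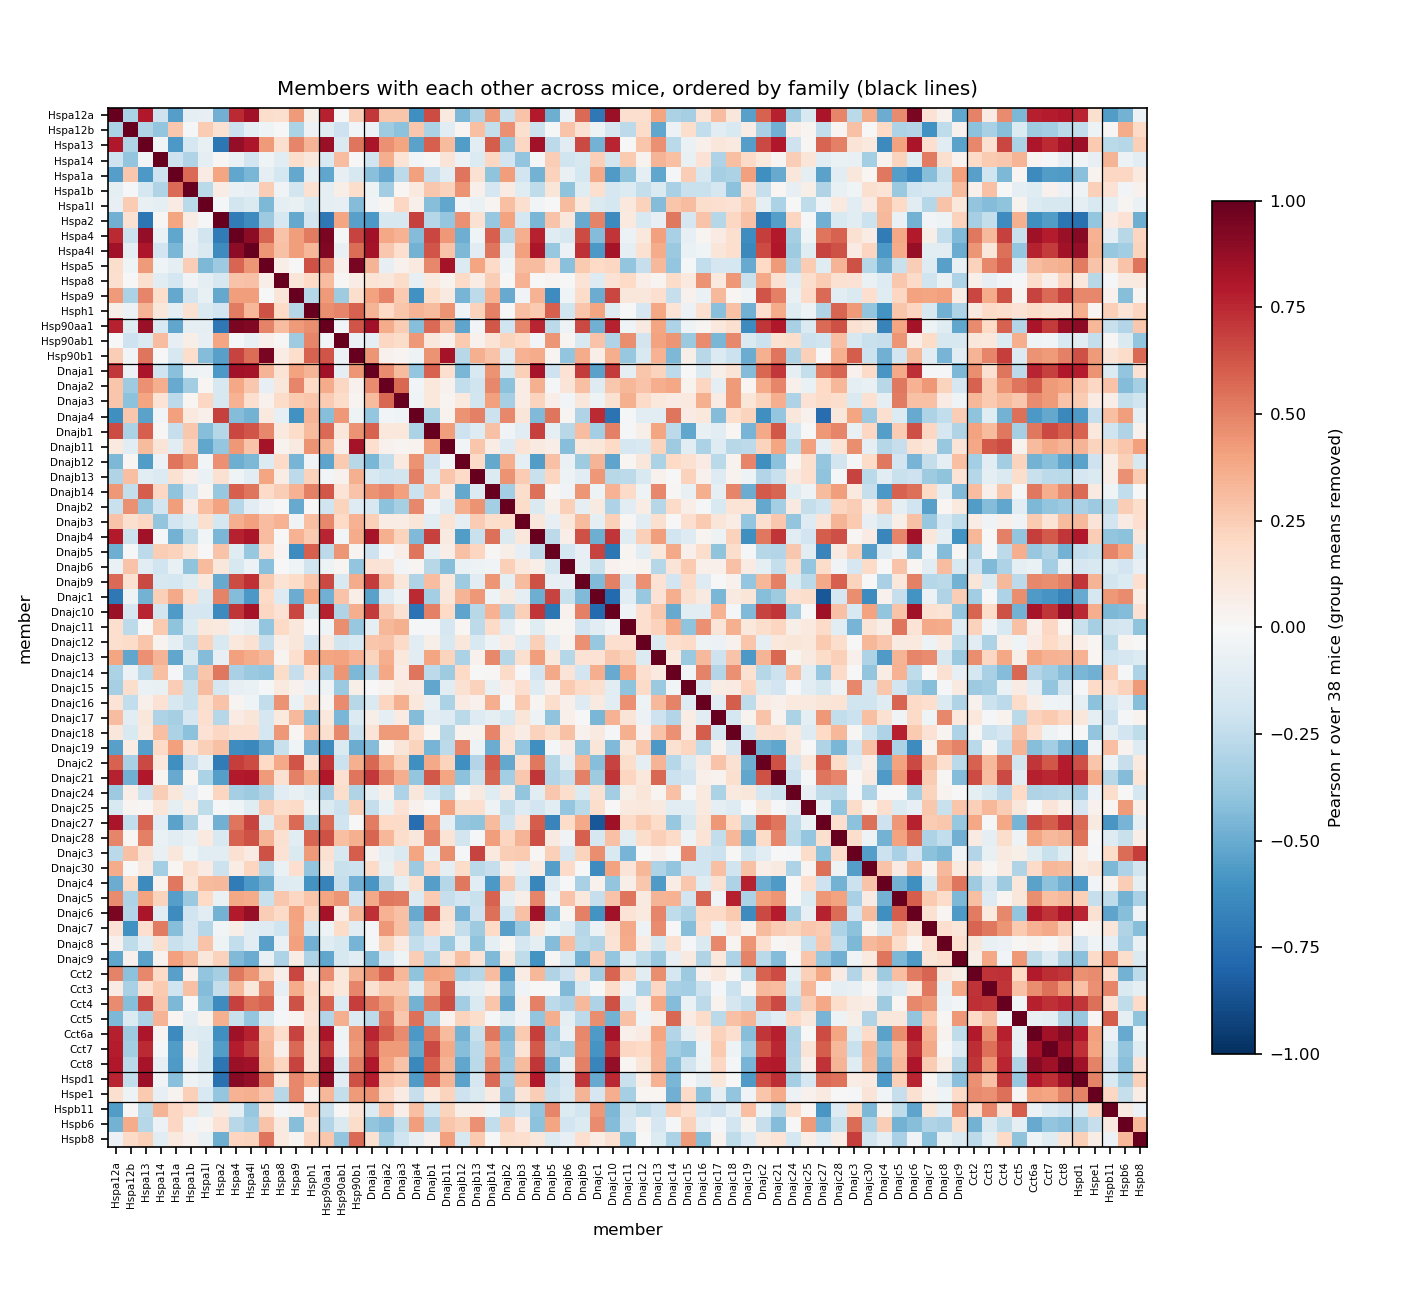
Pearson r over 38 mice, group means removed, between 69 members ordered by family (black lines). Hspa5 with Hsp90b1 at 0.95, the block of Cct subunits and the set around Hsp90aa1 and Hspa4 stand out in red.

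Subunits of the cytosolic chaperonin are known to assemble into rings of fixed make-up. Among its 7 measured members, 17 of 21 pairs had a positive r, with a median of 0.72 and the highest at 0.91 between Cct8 and Cct6a, where the median over all pairs of members was 0.04. Cct5 stood apart, for the 4 negative pairs all held it, and the lowest r was -0.30. Cct2 and Cct6a had r = 0.80 (rho = 0.80), and Cct2 with Tcp1, the subunit outside the rule, r = 0.89 (rho = 0.85), each with permutation p = 1e-05 and adjusted 2e-05 (rho 2.4e-05). They stood at 0.77 and 0.95 within the pre-plaque mice and at 0.87 and 0.82 within the post-plaque mice. The chaperonin genes above 1 CPM also had the lowest median SD between mice of a group of any family, at 0.09 on the log2 scale. It was 0.16 over the 15027 expressed genes, 0.10 for J-domain genes and 0.26 for small heat shock proteins. The levels differed as well, with means of 97.4 to 185 CPM for these chaperonin genes and 4.07 to 17.6 CPM for small heat shock proteins. Level was not taken into account.

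At the other end, Dnajb13, a J-domain protein of cilia, had the largest SD of the members (0.66, above 97.1% of expressed genes). It was at 2.89, 2.66, 2.75 and 1.56 CPM in pre-plaque placebo-treated WT mice and at 2.52, 0.827, 1.85 and 0.543 CPM in APPPS1ΔE9 mice, a log2 difference of -0.78 (SE 0.43, adjusted p = 0.524, edgeR). Its level went with that of Foxj1, the regulator of motile cilia (r = 0.70, rho = 0.66, permutation p = 2e-05 and 1.3e-04, adjusted 3.4e-05 and 2.2e-04), at 0.84 within the pre-plaque and 0.71 within the post-plaque mice. The 5 markers of ciliated ependyma, Foxj1 among them, had a summed level with a median of 53.1 CPM in those WT and of 26.9 CPM in those APPPS1ΔE9 mice, and their ranges overlapped. Hspa8 was next (SD 0.34), then Hspa1b (0.31), Hspa1a (0.29) and Hspa5 (0.28). Hspa1a and Hspa1b went together at r = 0.57 (rho = 0.56, permutation p = 4.2e-04 and 9.3e-04, adjusted 5e-04 and 0.0012), whereas Hspa1b and Dnajb1, the J-domain partner induced with it in the heat shock response, had r = 0.27 (rho = 0.21, permutation p = 0.16 and 0.27).

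Other genes of the same pathways were followed as lists. Among 32 co-chaperones and regulators of the heat shock response, 30 or 31 were tested, and 1 was called in 1 of the 14 comparisons. This was Hsf5, a heat shock factor known from testis, lower in APPPS1ΔE9 mice at 10 months over both chows (log2 fold change -0.68, SE 0.16, adjusted p = 0.0287, edgeR), with 23 of 31 genes positive and a list median of 0.03. Among 20 genes of the endoplasmic reticulum stress response, 19 or 20 of them tested, 2 were called in that same comparison. They were Sdf2l1, a partner of Dnajb11 (0.47, SE 0.11, adjusted p = 0.0324), and Edem1, which marks misfolded glycoproteins for degradation (0.17, SE 0.04, adjusted p = 0.033, edgeR). In that comparison 1.56% of all tested genes were called and 7.07% had an unadjusted p under 0.05. Of the stress list 19 of 20 genes were higher in APPPS1ΔE9 mice and 6 stood at an unadjusted p under 0.05, with a median of 0.08 beside -0.00 over all genes. The members Hspa5, Dnajc3, Hsp90b1, Dnajb11 and Dnajb9 stood at 0.23, 0.12, 0.07, 0.02 and 0.01 there. Of 9 prefoldin and chaperonin helpers 0 were called, although all 9 were lower in pre-plaque placebo-treated APPPS1ΔE9 than WT mice (median -0.16, 5 at an unadjusted p under 0.05, where 11.1% of all genes were) and all 9 higher in APPPS1ΔE9 mice on anle138b than on placebo (median 0.11), 2 comparisons that share the placebo-treated mice. Of 8 genes of the mitochondrial unfolded protein response 0 were called in any comparison.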

How the data were processed

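Hippocampal mRNA of 38 mice was sequenced, 1 library per mouse. The authors deposited raw read counts per gene for each library (48709 genes, 1 table per mouse), made with HTSeq on mm10 according to the submitters' processing notes. Settings for strand and for reads with several matches are not given in the sources used here. Mice were grouped by title. The members and all gene lists were chosen with earlier results of these data known.

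Genes with too few reads were removed with filterByExpr (minimum count 10, minimum total 15), separately in each comparison. Counts were scaled by TMM and tested with edgeR 4.0.16 in R 4.3.3 (robust quasi-likelihood fit), and p-values were adjusted by Benjamini-Hochberg over all tested genes, with calls at an adjusted p under 0.1. Pairs of groups were fitted alone, and interactions and pooled differences on all groups concerned. P-values measure the spread between mice. DESeq2 1.42.0, RLE scaling, no filter, a threshold of 0.05, sex class by Xist, the replicate number, summed Hspa1a and Hspa1b, 1 fit per cohort, lane 4 alone, leaving out each mouse, and, chosen after seeing the data, the choroid plexus level were tried as alternatives. The fits were tested on simulated data. Replicate numbers in the titles are not said to pair mice.

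RPKM used exon lengths of GENCODE M21 (GRCm38, the same as mm10). Correlations used log2 CPM with a prior count of 2 and group means removed. Their two-sided p came from 100000 permutations of mice within groups. Promoters are those of RefSeq (GRCm38.p6), and the Hspa8 and Gm26825 transcripts those of the GENCODE genome.

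By the rule for named genes, these were, in each comparison of 2 groups, the 2 members with the highest and the 2 with the lowest estimate, a panel of 25 main members, the 5 members with the highest RPKM and members that were called, filtered out or shared sequence. Members named for an unadjusted p under 0.05, Gm26825 and the genes near Hspa8, Cirbp and the correlated pairs were chosen after their values were seen.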

Additional observations from a re-analysis of the deposited data

Results flagged for a closer look

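For 36 members each of the 8 groups was searched for a mouse that lay far from the others of its group, by Dixon's test at the 95% level. Of 288 such searches 29 found one, where chance gives about 1 in 20, and values are CPM throughout.

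Among the Hsp70 and Hsp90 genes, Hspa8 stood out at 260 in mouse 37 (WT, placebo, 6 months) and at 269 in mouse 17 (APPPS1ΔE9, placebo, 6 months), both on the upper side of the gap described above. Hspa12b was low at 4.65 in mouse 84 (APPPS1ΔE9, anle138b, 6 months), whose removal led edgeR to call the gene, and at 6.25 in mouse 55 (WT, placebo, 10 months). Hspa2, a testis-enriched Hsp70, stood apart at 73.6 in mouse 71 and 42.2 in mouse 63, and Hsp90ab1 at 1431 in mouse 52 and 1507 in mouse 57. Hsph1 was at 341 in mouse 17, below the other 3 mice of its group by a small amount.

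Mouse 84 was apart in 3 further genes, with Dnajb5 at 151, Dnajb13 at 1.13 and Hspb6 at 3.89. Other J-domain genes were Dnaja1 at 94.7 in mouse 15, Dnajb1 at 48.9 in mouse 55, Dnajb6 at 10.8 in mouse 56, Dnajb13 at 1.56 in mouse 77, Dnajb3 at 0.631 in mouse 64 and Dnajc25 at 5.63 in mouse 53. Among the chaperonins Hspd1 was at 69.8 in mouse 74, Hspe1 at 33.6 in mouse 39 and 18.6 in mouse 100, Cct4 at 143 in mouse 39, Cct5 at 174 in mouse 97 and Cct8l1 at 0.0905 in mouse 75. Small heat shock proteins gave Hspb2 at 0.0739 in mouse 57, Hspb3 at 0.174 in mouse 97 and Hspb6 at 4.96 in mouse 17, 4.77 in mouse 63 and 4.62 in mouse 91.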

How the results depend on the processing

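The count of 0 members called held in 318 of 322 alternative fits over the 14 comparisons. The exceptions were DESeq2 in the pre-plaque genotype comparison over both chows (1 member, Hspa12b) and fits that left out 1 mouse, whose counts ran from 0 to 1 in pre-plaque APPPS1ΔE9 against WT on placebo, from 0 to 2 in pre-plaque APPPS1ΔE9 on anle138b against placebo and from 0 to 1 in the pre-plaque genotype comparison over both chows. Of the members named by size, Hspb3 turned to 0.10 with sex class as a covariate in pre-plaque APPPS1ΔE9 against WT on anle138b, and Hspb2 in post-plaque APPPS1ΔE9 on anle138b against placebo ran from -0.017 to 0.38 as mice were left out. The cause was not tested. With sex class, the median of members in pre-plaque APPPS1ΔE9 against WT on placebo went from -0.04 to 0.01, and 2 in place of 10 members had an unadjusted p under 0.05. The choroid plexus level turned the medians of the 2 post-plaque comparisons given in the text. Sex class raised the members at that threshold from 1 to 8 between genotypes on anle138b at each age. With lane 4 alone, 7 in place of 0 passed it in pre-plaque WT mice, in a fit that kept only mice 33 and 39 on anle138b against the 4 on placebo.

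Counts over all genes moved more. DESeq2 called 139 genes against 12 by edgeR and 204 against 9 in the 2 pre-plaque comparisons with APPPS1ΔE9 mice on placebo, 47 against 8 and 189 against 124 between genotypes on anle138b (pre-plaque, post-plaque), 0.636% against 0.324% of genes between post-plaque genotypes on placebo, 118 against 30 over both chows at 6 months, and 22, 2 and 16 against 0 in the 3 interactions. Without a filter the first 2 counts were 110 and 120. Sex class brought 12, 55, 124 and 30 calls between genotypes to 4, 15, 299 and 5 (pre-plaque placebo, post-plaque placebo, post-plaque anle138b, pre-plaque both chows). The replicate block called 0 members in every comparison, and over all genes 13 against 8, 25 against 55 and 20 against 124. Deviations of same-numbered mice had mean correlations from -0.22 to 0.31, and in no comparison did every pair exceed 0.1, so the numbers were not taken to pair mice. Few reads limit Cct8l1, Hspb2, Hspb3, Dnajb13 and the Hspa1 genes.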
